A study of Mus musculus with 6 samples.

Results

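Cathepsins are the proteases of the lysosome and late endosome. The 10 described here, Ctsa, Ctsb, Ctsc, Ctsd, Ctsf, Ctsh, Ctsk, Ctsl, Ctss and Ctsz, were taken by their gene symbols out of the 35237 genes of the Cufflinks table, and the same 10 symbols each had 1 entry among the 36536 of the ALEXA-Seq table. The study asked which transcripts separate bone marrow-derived monocytes (BMDM) from resident brainstem microglia (BSM). BMDM were sorted from bone marrow as CD11b+ CD45high CD115+ Ly6G- cells and BSM from brain as CD11b+ CD45low CD115low Ly6G- cells, all from C57BL/6 mice of 6 weeks, with no agent, transgene or deletion in either group. Each of the 3 BMDM and 3 BSM libraries came from cells pooled over several mice. By the labels, and by the study's supplement, replicate 1 of each group was male and replicates 2 and 3 were female. The study's main text describes male mice. If the labels hold, sex cannot be told apart from replicate 1. RNA was amplified with the Ovation method before sequencing, and levels are given as FPKM, that is, fragments scaled for the length of the transcript and the number of mapped reads.

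The labelled cell types were checked against marker genes. The 9 microglial markers summed to between 1005 and 1139 FPKM in BSM and between 17.6 and 20.3 in BMDM, and the 7 monocyte markers to between 459 and 498 in BMDM and between 1.10 and 1.56 in BSM. A pair of libraries stood apart. In BMDM replicate 2 the 9 markers of neutrophils and granule precursors summed to 348 FPKM against 60.4 and 98.6 in the other two, and the 5 erythroid markers to 38.5 against 6.81 and 6.91. In BSM replicate 1, 472 of the 6364 genes tested were listed at 0, against between 51 and 115 in the other libraries. By the study's supplement this library also had the lowest RNA integrity and RNA concentration of all, both far below the others. The part of RNA quality in its values was not tested. Summed over all genes, FPKM came to between 163199 and 194184 in BMDM and between 68288 and 75021 in BSM, so the differences below are given as deposited and also after rescaling.

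Most cathepsins are cysteine proteases of the papain family, whereas Ctsd is an aspartic protease and Ctsa a serine carboxypeptidase. They are made as inactive precursors, carried to the lysosome largely by mannose 6-phosphate receptors, and activated there by cleavage at acid pH. In myeloid cells they degrade phagocytosed protein and prune the invariant chain from MHC class II, and Ctsc removes a dipeptide that keeps the serine proteases of granules inactive. A family of basic helix-loop-helix factors that includes Tfeb binds the letters CACGTG in promoters of many lysosomal genes, and the ETS factor Spi1 binds purine-rich letters such as GAGGAA in myeloid genes.

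The promoters of 3 members with higher transcript levels in BSM are shown because they differ in these letters. RefSeq promoters on GRCm38.p6 were at hand for 8 of the 10 members, all but Ctsb and Ctsh. Each line gives the 250 bases before the transcription start, 5′ to 3′ on the gene's strand, for Ctsd at chr7:142387828-142388077 (minus strand), Ctsf at chr19:4854915-4855164 (plus strand) and Ctss at chr3:95526536-95526785 (plus strand). Capitals mark CACGTG in Ctsd and Ctsf and GAGGAA in Ctss.
Ctsd: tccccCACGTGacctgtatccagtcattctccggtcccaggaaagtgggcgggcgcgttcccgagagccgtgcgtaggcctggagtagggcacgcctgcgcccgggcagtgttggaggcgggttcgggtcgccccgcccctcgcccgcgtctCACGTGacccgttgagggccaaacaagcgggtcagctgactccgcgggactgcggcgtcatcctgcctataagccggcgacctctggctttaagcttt
Ctsf: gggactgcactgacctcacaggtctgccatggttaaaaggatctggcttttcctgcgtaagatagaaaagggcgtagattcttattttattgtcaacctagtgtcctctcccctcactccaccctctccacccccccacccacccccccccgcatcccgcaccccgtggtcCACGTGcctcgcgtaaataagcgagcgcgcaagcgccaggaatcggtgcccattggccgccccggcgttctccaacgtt
Ctss: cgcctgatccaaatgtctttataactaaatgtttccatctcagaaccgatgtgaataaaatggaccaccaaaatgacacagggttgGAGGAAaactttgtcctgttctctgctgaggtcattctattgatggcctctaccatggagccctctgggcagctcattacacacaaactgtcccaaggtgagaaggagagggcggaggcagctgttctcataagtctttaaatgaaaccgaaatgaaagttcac
CACGTG, which reads the same on both strands, lay 245 and 98 bases before the start of Ctsd and 79 bases before that of Ctsf. GAGGAA lay 164 bases before the start of Ctss, which held no CACGTG in this window. As Ctsa has a second start, the 8 members had 9 promoters. Counting the 250 bases before and 50 after each start, CACGTG was found in 4 of these 9 (Ctsa, Ctsd, Ctsf and Ctsl) against 7.15% of 32851 promoters in the table. GAGGAA on either strand was found in 3 of 9 (Ctsc, Ctsk and Ctss) against 28.3%, and GGAAGT on either strand in 4 of 9 (Ctsa, Ctsc, Ctsk and Ctss) against 23.8%. GGAAGT and GAGGAA can overlap, the Ctsa matches belong to a second start inside the gene, and the start of the Ctsl entry also lies 252 bases inside its RefSeq gene. These are matches of letters and not sites shown to be bound.

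Ctsd, Ctsl, Ctss and Ctsf were higher in BSM. The mean FPKM of Ctsd was 13.3 times and that of Ctsl 13.6 times as high in BSM as in BMDM, while Ctss, the most abundant cathepsin transcript of both cell types, was 2.63 times as high. Ctsc was 1.59 times as high in BMDM when FPKM were used as deposited. Ctsa, Ctsb, Ctsh and Ctsz did not pass the test, and Ctsk stayed close to 0 in all 6 libraries. By limma with Benjamini-Hochberg adjustment over 6364 genes, 4 of the 9 members tested were called higher in BSM, where 9.22% of all genes tested were, and 1 of 9 higher in BMDM, where 45.3% were. Of those higher in BSM, Ctsf reached the 3 FPKM needed for testing only in BSM, so its direction was fixed in advance. The groups did not overlap for 6 of the 9 members, close to the 66.8% of all genes tested.

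**Figure D1:**
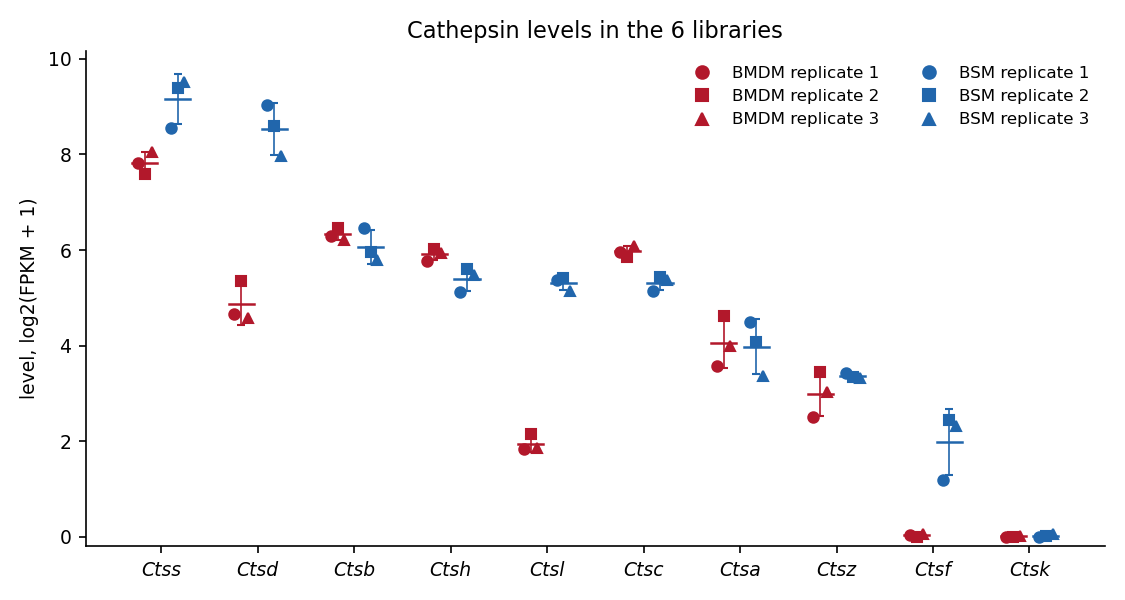
Levels of the 10 cathepsins as log2(FPKM + 1) in each library (red, BMDM; blue, BSM; one symbol for each replicate), with the mean and SD (n = 3) as bars, ordered by the mean FPKM in BSM. The BSM symbols of Ctss, Ctsd, Ctsl and Ctsf lie above all BMDM symbols, those of Ctsc and Ctsh lie below them, and those of Ctsa, Ctsb, Ctsz and Ctsk overlap.

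Ctsd, the main aspartic protease of the lysosome, had 24.3, 40.1 and 22.9 FPKM in BMDM replicates 1 to 3. In BSM it had 525, 387 and 248 FPKM. Every BSM library was thus far above every BMDM library, with BSM replicate 1 the highest and BSM replicate 3 the lowest of its group. The means were 29.1 ± 9.55 FPKM in BMDM and 387 ± 138 in BSM (SD, n = 3). The log2 fold change, BMDM minus BSM on the log2(FPKM + 1) scale, was -3.67 with a standard error of 0.34 and a limma adjusted p of 0.00011. Within each library, Ctsd moved from places 479 to 851 in the order of all 35237 genes in BMDM to places 10 to 22 in BSM. The files place Ctsd on chromosome 7 from 149557053 to 149573943 of mm9, where it overlaps 6330512M04Rik, which reached at most 6.25 FPKM. In GENCODE M21, another annotation, 41.2% of the first Ctsd transcript is also part of the gene model Gm49369. Among the Cufflinks entries only 6330512M04Rik overlapped Ctsd, so no division of reads with Gm49369 is shown for these values.

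Ctsl, a cysteine endopeptidase, had the smallest limma p of the 9 members tested. It had 2.55, 3.43 and 2.63 FPKM in BMDM and 40.7, 41.7 and 34.3 in BSM. The means were 2.87 ± 0.49 and 38.9 ± 4.00 FPKM (SD, n = 3), so the spread within each group was small beside the difference. The log2 fold change was -3.37 with a standard error of 0.22 (limma adjusted p = 2.4e-05). Its place among all genes went from between 4745 and 5168 in BMDM to between 210 and 266 in BSM. Ctsl lies on chromosome 13 from 64465105 to 64471614 of mm9, and no other transcript of GENCODE M21 matched its first transcript over 100 bases at 95% identity or more.

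Ctss, an endopeptidase that stays active near neutral pH and cleaves the invariant chain, had 225, 191 and 264 FPKM in BMDM. In BSM it had 378, 675 and 736 FPKM, the lowest of these in BSM replicate 1, the library with the most genes at 0. The groups did not overlap, and the means were 226 ± 36.6 and 596 ± 192 FPKM (SD, n = 3). The log2 fold change was -1.35 with a standard error of 0.29 (limma adjusted p = 0.0064), and -1.65 without BSM replicate 1 (limma adjusted p = 0.00092). Ctss was already at places 40 to 59 of all genes in BMDM and was at places 7 to 13 in BSM. It lies on chromosome 3 from 95330708 to 95360322 of mm9.

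Ctsf, a further cysteine cathepsin, was at 0.029, 0 and 0.041 FPKM in BMDM and at 1.28, 4.44 and 3.95 in BSM. Only its BSM values took it past the minimum of 3 FPKM in at least 1 library, so a gene kept in this way had to differ, and its call (limma adjusted p = 0.0046) adds little to those values. No fold is given for Ctsf because a BMDM library was listed at 0. The lowest BSM value was again in BSM replicate 1. It lies on chromosome 19 from 4855129 to 4860912 of mm9.

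Ctsc, the dipeptidyl peptidase that activates granule serine proteases, had 61.3, 57.0 and 67.2 FPKM in BMDM and 34.3, 42.0 and 40.4 in BSM. The groups did not overlap, and the means were 61.9 ± 5.13 and 38.9 ± 4.06 FPKM (SD, n = 3). The log2 fold change was 0.66 with a standard error of 0.21 (limma adjusted p = 0.030), below the median of 0.81 over all genes tested. With a minimum of 1 FPKM in place of 3 it was above the median, which was then 0.58. The call was lost without BMDM replicate 1 (adjusted p = 0.061), BMDM replicate 3 (0.11), BSM replicate 2 (0.064) or BSM replicate 3 (0.071). It changed sign under each rescaling described below.

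Ctsh, an aminopeptidase, was the other member with higher values in all BMDM libraries, at 53.7, 63.8 and 60.7 FPKM against 33.7, 47.9 and 43.3 in BSM. Its log2 fold change of 0.51 did not pass the test (95% interval -0.01 to 1.04, limma adjusted p = 0.087). Ctsb, an endopeptidase and carboxypeptidase found in most cells, had 78.0, 87.6 and 73.3 FPKM in BMDM and 87.6, 61.5 and 54.1 in BSM (log2 fold change 0.26, 95% interval -0.31 to 0.83, adjusted p = 0.40). Its values overlapped through BSM replicate 1, and without that library it was called higher in BMDM (log2 fold change 0.45, adjusted p = 0.049). Part of the first Ctsb transcript, 16.3%, is shared with transcripts of Fdft1 in GENCODE M21.

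Ctsa, which protects beta-galactosidase and neuraminidase in the lysosome, had 10.9, 23.5 and 14.8 FPKM in BMDM and 21.6, 15.8 and 9.32 in BSM (log2 fold change 0.08, 95% interval -0.80 to 0.96, adjusted p = 0.87). Ctsz, a carboxypeptidase, had 4.68, 9.89 and 7.14 FPKM in BMDM and 9.82, 9.14 and 8.98 in BSM (log2 fold change -0.37, 95% interval -1.03 to 0.28, adjusted p = 0.29). Both intervals are wide, so equal levels were not shown. The highest BMDM value of 6 members, Ctsa, Ctsb, Ctsd, Ctsh, Ctsl and Ctsz, was in BMDM replicate 2, the library with the most granule precursor transcripts. For the other 4, Ctsc, Ctsf, Ctsk and Ctss, that library was the lowest or at 0 with others. It also had the highest FPKM summed over all genes (194184 against 163199 and 173493 in BMDM replicates 1 and 3). The part of granule precursor cells in the values was not tested. Without both BMDM replicate 2 and BSM replicate 1, a choice made after the values were seen, 5 members were called higher in BSM, with Ctsz added (log2 fold change -0.57, adjusted p = 0.045), and Ctsc stayed called higher in BMDM.

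Ctsk, the collagenase of osteoclasts, did not reach the minimum and was not tested. It was listed at 0 in 3 libraries, and its highest value was 0.041 FPKM in BSM replicate 3. Among the 8 osteoclast markers, Calcr and Oscar were at 0 in all 6 libraries, and the list summed to between 2.57 and 6.22 FPKM in BMDM and between 3.12 and 5.27 in BSM, nearly all of it from Nfatc1. In bulk libraries such as these, fewer cells of a type and less RNA per cell cannot be told apart, and this holds for each level given here.

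**Figure D2:**
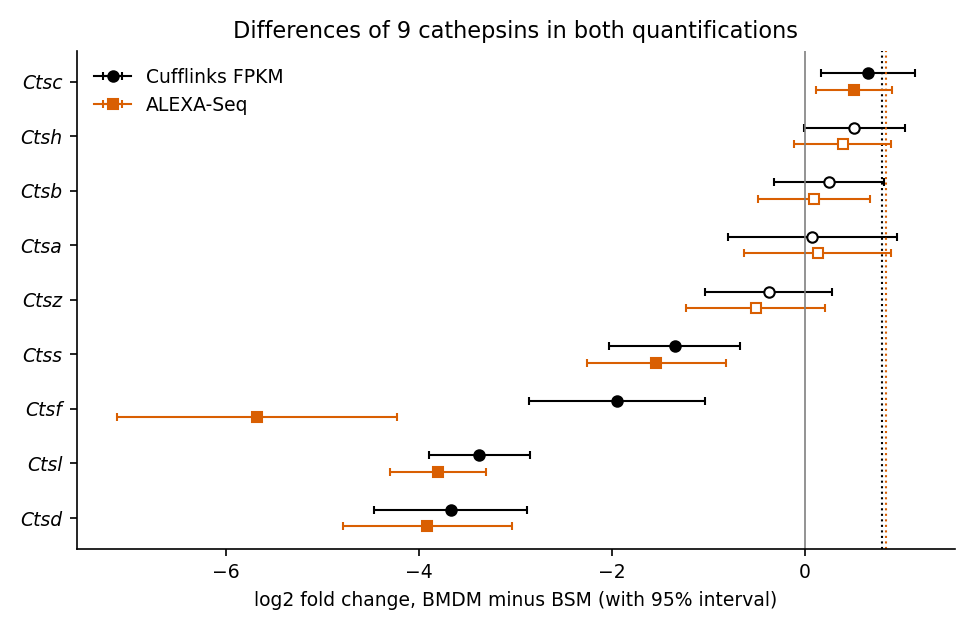
Log2 fold change (BMDM minus BSM) of the 9 members tested, with 95% intervals from limma, from Cufflinks FPKM (black circles) and from ALEXA-Seq values (orange squares), filled where the adjusted p was under 0.05. Dotted lines give the median over all genes tested, 0.81 and 0.84, and all 9 members lie to the left of both.

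The ALEXA-Seq table is a second quantification of the same libraries, so it tests the counting and not the biology. There Ctsd had 271, 441 and 254 in BMDM and 7257, 4667 and 3067 in BSM, and Ctsl 53.4, 71.6 and 60.9 against 989, 875 and 760.3. Ctss had 3868, 3318 and 4516 against 7466, 13155 and 14387. For these 3 genes the libraries stood in the same order as in FPKM, apart from BSM replicates 1 and 2 for Ctsl. Ctsh, with 490.1, 556 and 508 in BMDM and 497, 375 and 328 in BSM, overlapped between the groups here and not in FPKM. With limma on log2(value + 1), the log2 fold changes were -3.91 for Ctsd (adjusted p = 0.00027), -3.80 for Ctsl (adjusted p = 4.8e-05) and -1.54 for Ctss (adjusted p = 0.0064). Ctsf was also called, with 0.73, 0 and 0.86 in BMDM and 36.1, 115 and 97.9 in BSM. The same 4 members were called higher in BSM, where 10.9% of all entries tested were, and Ctsc alone higher in BMDM (log2 fold change 0.51, adjusted p = 0.042), where 37.1% were.

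The order of the levels differed between the cell types. FPKM is per length, so members can be compared with each other on that scale. In BMDM the mean FPKM fell from Ctss (226) to Ctsb (79.6), Ctsc (61.9), Ctsh (59.4), Ctsd (29.1), Ctsa (16.4), Ctsz (7.24), Ctsl (2.87) and Ctsf (0.023). All neighbours kept this order in all 3 libraries except Ctsc with Ctsh and Ctsf with Ctsk. In BSM it fell from Ctss (596) to Ctsd (387), Ctsb (67.7), Ctsh (41.6), Ctsl (38.9), Ctsc (38.9), Ctsa (15.6), Ctsz (9.31) and Ctsf (3.22). There Ctss and Ctsd, Ctsh and Ctsl, and Ctsl and Ctsc did not keep their order in every library. By FPKM, Ctsd and Ctsl thus stood below Ctsb, Ctsc and Ctsh in every BMDM library, and Ctsd stood above those 3 in every BSM library. The ALEXA-Seq values, whose unit is not given, put some members in another order. There Ctsd was above Ctsc in BMDM replicate 2 (441 against 345). The mean of Ctsz was above that of Ctsa in BMDM (192 against 102) and in BSM (261 against 92.2).

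A share within a library is not moved when that library is multiplied by 1 factor, as in all rescalings used here except quantile normalization. Summed, the 10 cathepsins came to 460.4, 476 and 513 FPKM in BMDM and 1131, 1285 and 1179 in BSM, 2.48 times as much. As a share of the FPKM of all genes this was 0.28%, 0.25% and 0.30% in BMDM and 1.64%, 1.71% and 1.73% in BSM. Of the cathepsin sum, Ctss and Ctsd together held 54.1%, 48.5% and 55.9% in BMDM and 79.8%, 82.7% and 83.5% in BSM. Ctsd held 6.06% ± 2.09 of the sum in BMDM and 32.5% ± 12.8 in BSM (SD, n = 3), and Ctss held 46.8% ± 5.99 and 49.5% ± 14.8. BSM replicate 1 had the lowest Ctss share of its group, 33.4% against 52.6% and 62.5%. Without it the BMDM minus BSM difference was -10.7 points for Ctss, in place of -2.68, and -19.5 points for Ctsd, in place of -26.5.

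**Figure D3:**
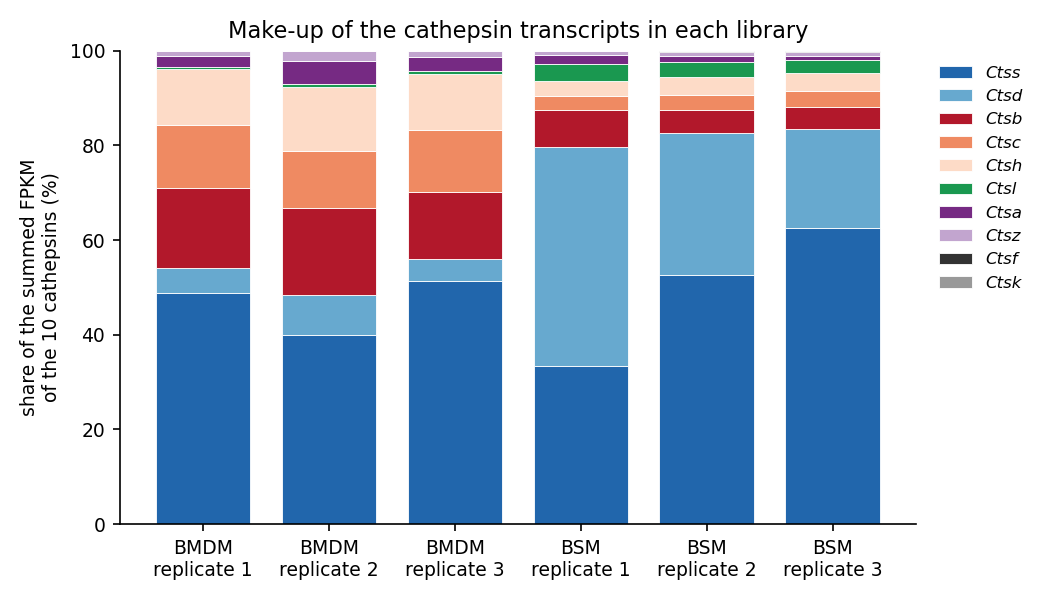
Share of each cathepsin in the summed FPKM of the 10, in percent, for each of the 6 libraries as a stacked bar. The Ctsd part grows from between 4.46% and 8.42% in BMDM to between 21.0% and 46.4% in BSM, and the Ctsb, Ctsc and Ctsh parts shrink.

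Among the other members, the share of Ctsl was 0.60% ± 0.11 in BMDM and 3.25% ± 0.34 in BSM. The shares of Ctsb (16.5% ± 2.08 against 5.70% ± 1.77), Ctsc (12.8% ± 0.72 against 3.24% ± 0.20) and Ctsh (12.3% ± 0.96 against 3.46% ± 0.42) were smaller in BSM (SD, n = 3 for each). The size of a share depended on the quantification, as Ctsc held 5.21% in BMDM and 1.25% in BSM by ALEXA-Seq values. By FPKM, apart from Ctss and Ctsk, no member's shares overlapped between the groups. An exact two-sided permutation test over 3 against 3 libraries gave p = 0.1 for each of these 8 members, the smallest p this design allows, against 0.8 for Ctss and 0.7 for Ctsk. Shares of 1 sum are tied to each other, so these are not 8 separate results, and Ctsz had the smaller share in BSM although its mean FPKM there was 9.31 against 7.24 in BMDM. Within BSM the balance of the abundant pair varied. The ratio of Ctss to Ctsd was 0.72, 1.74 and 2.97 in BSM replicates 1 to 3 and 9.26, 4.75 and 11.5 in the BMDM libraries, and the groups did not overlap. The ratio of Ctsd to Ctsb was 0.31, 0.46 and 0.31 in BMDM and 5.99, 6.30 and 4.59 in BSM, a wider gap with less spread.

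The direction of the smaller differences depended on how the libraries were brought to one scale. As deposited, the median log2 fold change of all genes tested was 0.81. It was 0.14 after upper quartile scaling, 0.02 after quantile normalization and -0.23 after scaling every library to the same summed FPKM. Ctsd, Ctsl, Ctss and Ctsf were called higher in BSM under all 4, with log2 fold changes after quantile normalization of -4.59, -4.20, -2.32 and -2.42. Ctsz was called higher in BSM under the 3 rescalings (log2 fold change -1.11 and limma adjusted p = 0.0065 after quantile normalization). Ctsc went to -0.18, -0.13 and -0.64 in the order given, and Ctsa, Ctsb and Ctsh also turned below 0. After quantile normalization 5 of 9 members were called higher in BSM and 0 higher in BMDM, where 19.3% and 21.7% of all genes tested were. At 0 calls by limma, no member had an unadjusted p under 0.05 in the BMDM direction either, as all 9 were then higher in BSM. At the same sum, 9 of 9 were called higher in BSM and 0 in BMDM, against 24.9% and 15.2%. All 9 members lay below the median of all genes tested in each of these 4 fits. This depended on the minimum of 3 FPKM. As deposited, 8 of 9 lay below the median of 0.58 with a minimum of 1 FPKM, and 6 of 10 below the median of 0.03 with no minimum. For Ctsf the place below the median was largely set by the filter, because it passed the minimum only through BSM.

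**Figure D4:**
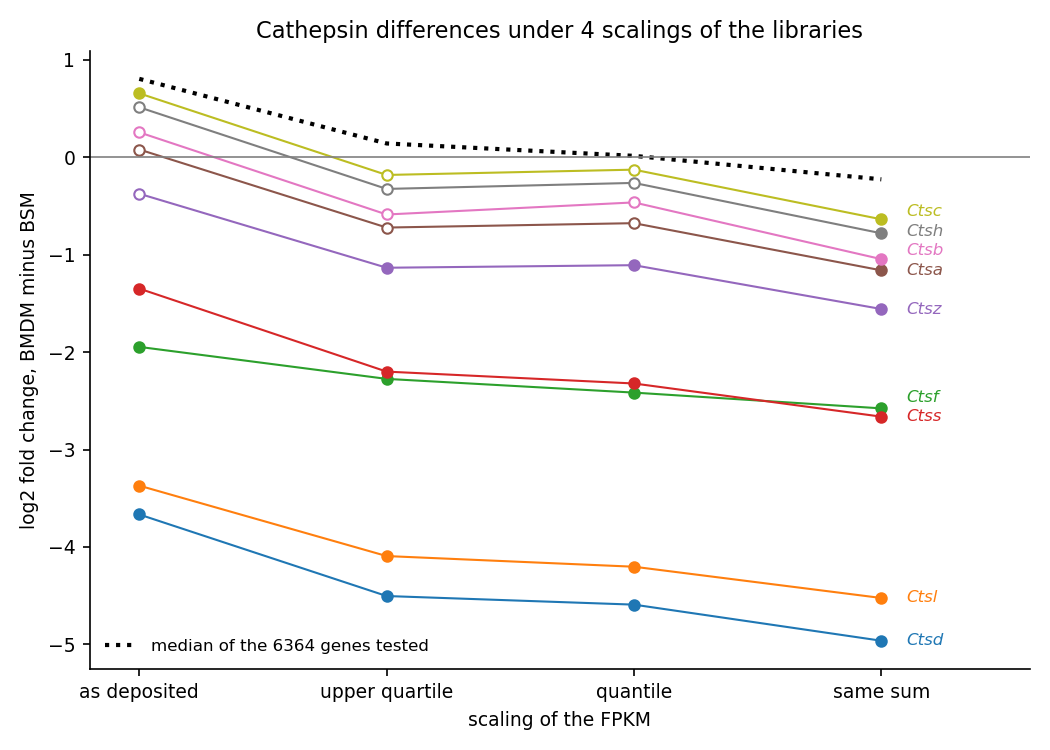
Log2 fold change (BMDM minus BSM) of the 9 members tested under 4 scalings of the FPKM, filled where the limma adjusted p was under 0.05, with the median of all 6364 genes tested as a dotted line. Ctsd, Ctsl, Ctss and Ctsf stay below 0 throughout, Ctsc, Ctsh, Ctsb and Ctsa cross 0, and all 9 lines run below the dotted one.

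Genes that work with the cathepsins were then counted in the same fit of FPKM as deposited, where the median of all genes was 0.81. In the 9 lists 51 genes were tested, of which 18 were called with more transcript in BMDM and 9 with more in BSM, beside the 45.3% and 9.22% of all genes tested. After quantile normalization the split was 11 to 17, beside 21.7% and 19.3% of all genes tested. At the same sum it was 9 to 23, beside 15.2% and 24.9%. Of the 51 genes, 13 reached the minimum of 3 FPKM only in BMDM and 2 only in BSM, and a gene kept in this way had to differ. This holds for 9 of the 18 calls higher in BMDM and 1 of the 9 higher in BSM. Of 13 other cathepsins 3 were tested. Ctso, a cysteine cathepsin, was higher in BSM (4.43, 4.45 and 4.61 FPKM against 1.50, 1.00 and 1.87 in BMDM, log2 fold change -1.18, limma adjusted p = 0.0050), and passed the minimum only there. Ctsg, a serine protease of neutrophil granules, had 2.74, 17.3 and 6.94 FPKM in BMDM and was listed at 0 in all BSM libraries. Ctse, an aspartic protease of endosomes, had 2.30, 9.38 and 4.13 FPKM in BMDM and 1.16, 0.29 and 0.28 in BSM. Both passed the minimum only through BMDM, so the direction of their calls (limma adjusted p = 0.0023 and 0.0098) was fixed by the filter. The Ctse call was lost after quantile normalization (adjusted p = 0.11) and at the same sum (0.082). Both were highest in BMDM replicate 2, as were the granule precursor markers. The other 10 stayed under the minimum, and 7 of them were listed at 0 in every library.

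Of the 11 cathepsin inhibitors 3 were tested. Cst3 (cystatin C), a secreted inhibitor of cysteine cathepsins, was higher in BSM at 241, 351 and 294 FPKM against 33.2, 52.4 and 49.0 in BMDM (log2 fold change -2.70, limma adjusted p = 0.00013). Serpinb1a, an inhibitor of granule serine proteases, had 2.34, 6.56 and 4.40 FPKM in BMDM and was listed at 0 in BSM (adjusted p = 0.0012), so it passed the minimum only through BMDM. Cst7 (cystatin F), which acts on Ctsc, had 0.65, 4.69 and 0.88 FPKM in BMDM and at most 0.11 in BSM, and did not pass the test (adjusted p = 0.059). Cstb, a cytosolic inhibitor, averaged 2.01 FPKM in BMDM and 0.42 in BSM and was under the minimum.

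Among genes for processing and sorting of lysosomal enzymes, 3 of 8 tested were called higher in BMDM, beside 45.3% of all genes tested. Another 1 was called higher in BSM, beside 9.22%. The latter was Lgmn (legumain), the asparagine endopeptidase that trims several cathepsins to their mature chains, at 105, 81.6 and 67.4 FPKM in BSM against 0.89, 3.48 and 0.78 in BMDM (log2 fold change -5.09, limma adjusted p = 4.1e-05). Psap, the precursor of the saposins that also binds pro-Ctsd, went the other way, at 99.3, 165 and 123 FPKM in BMDM and 30.2, 28.3 and 24.6 in BSM (log2 fold change 2.15, adjusted p = 0.00034). Grn (log2 fold change 0.27, adjusted p = 0.34) and the sorting receptor Sort1 (0.60, adjusted p = 0.12) did not pass. The Ctsa partners Neu1 and Glb1 were both under the minimum, at no more than 1.58 and 1.19 FPKM in any library.

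In the class II pathway, where Ctss cleaves the invariant chain, 4 of 6 tested genes were called higher in BMDM and 0 in BSM. Of all genes tested, 45.3% and 9.22% were. Cd74, H2-Aa, H2-Ab1 and the uncalled H2-DMb1 passed the minimum only through BMDM, so 3 of the 4 calls had their direction fixed by the filter, and Ifi30 did not. Cd74, the invariant chain, had 14.7, 28.5 and 10.8 FPKM in BMDM and 0.064, 1.95 and 0.69 in BSM (limma adjusted p = 0.0008). Ifi30, a lysosomal thiol reductase, had 31.8, 30.9 and 33.4 FPKM against 4.75, 4.58 and 3.40 (adjusted p = 6.25e-05), and H2-Ab1 6.87, 11.5 and 5.18 against 0.042, 0.63 and 0.79 (adjusted p = 0.00077). H2-DMa, with a log2 fold change of 1.12, did not pass (adjusted p = 0.053). The count was the same after quantile normalization and at the same sum. Of all genes tested, 21.7% and 15.2% were then called higher in BMDM. The 3 tested granule serine proteases that Ctsc activates, Elane, Prtn3 and Ctsg, were listed at 0 in BSM and passed the minimum only through BMDM, so their calls higher in BMDM follow from the filter. Elane had 9.75, 56.0 and 10.7 FPKM in BMDM and Prtn3 0.42, 5.03 and 1.34 (limma adjusted p = 0.00085 and 0.0495). The Prtn3 call was lost after quantile normalization (adjusted p = 0.14). BMDM replicate 2 held the highest value for each of the 3, and the part of granule precursor cells in this was not tested.

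Of 18 other lysosomal hydrolases tested, 4 were called with more transcript in BMDM and 5 with more in BSM. The shares of all genes tested were 45.3% and 9.22%. Their median log2 fold change was 0.12. Asah1, an acid ceramidase, with 51.7 to 63.4 FPKM in BMDM and 51.9 to 60.3 in BSM, and Ppt1, a thioesterase, with 17.3 to 22.4 and 19.6 to 21.7, were not called (limma adjusted p = 0.90 and 0.85). Npc2, a sterol carrier, was higher in BMDM as deposited (log2 fold change 1.51, adjusted p = 0.0097), a call lost after quantile normalization (0.75, adjusted p = 0.11) and at the same sum (0.27, adjusted p = 0.59). As deposited, the called genes of this list thus went in both directions. After quantile normalization the split was 1 to 9, beside 21.7% and 19.3% of all genes tested. At the same sum it was 0 to 11, beside 15.2% and 24.9%.

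Of 7 lysosomal membrane proteins tested, 1 was called in each direction and the median log2 fold change was -0.38. Among all genes tested, 45.3% were called higher in BMDM and 9.22% higher in BSM. Lamp1 was higher in BMDM at 35.6, 55.2 and 47.5 FPKM against 10.9, 16.6 and 14.6 (log2 fold change 1.64, limma adjusted p = 0.0016), but not at the same sum (0.38, adjusted p = 0.22). For the list, 1 was called higher in BMDM and 3 in BSM after quantile normalization, beside 21.7% and 19.3% of all genes tested. At the same sum 0 and 5 were, beside 15.2% and 24.9%. Lamp2 (0.35), Laptm5 (0.02) and Cd68 (-0.38) did not pass, and Cd68 had 147 FPKM in BSM replicate 1 against 47.2 and 43.5 in the others. Of 4 tested regulators 1 was called, in the BMDM direction, where 45.3% of all genes tested were. Tfec, a relative of Tfeb listed under an older symbol, had 24.2, 57.2 and 37.5 FPKM in BMDM and 0, 0.37 and 0.20 in BSM (log2 fold change 5.02, adjusted p = 2.4e-05), and passed the minimum only through BMDM. Tfe3 (log2 fold change -0.51, adjusted p = 0.31) and Spi1 (0.49, adjusted p = 0.24) were not called, and Mitf, with means of 1.95 FPKM in BMDM and 1.91 in BSM, was under the minimum.

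**Figure D5:**
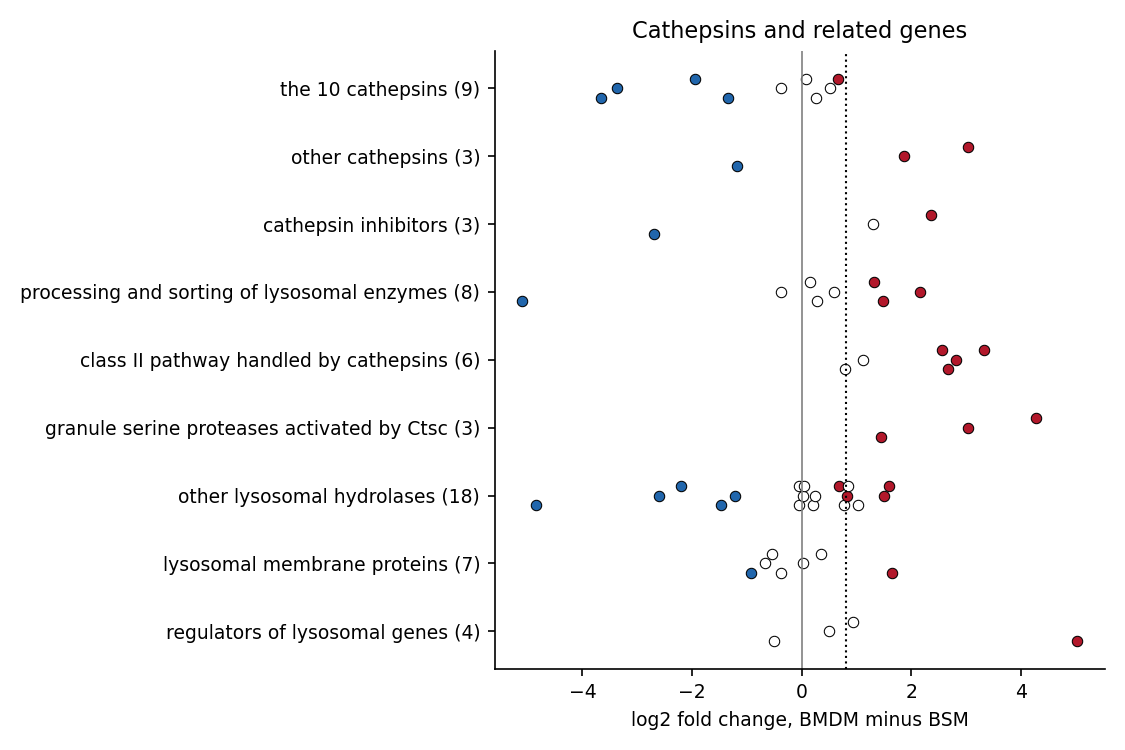
Log2 fold change (BMDM minus BSM, FPKM as deposited) of the cathepsins and of each list of related genes, one point per tested gene (number in brackets), red where called higher in BMDM, blue where called higher in BSM and white where not called. The dotted line is the median of all genes tested, 0.81. The cathepsins reach from -3.67 to 0.66, Lgmn is the lowest point at -5.09 and Tfec the highest at 5.02.

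Across the 6 libraries the genes whose log2(FPKM + 1) values lay nearest to those of Ctss, the highest member in both groups, were Serinc3, Zfp36 and Prpf38b, at Euclidean distances of 1.41, 1.50 and 2.69. Serinc3 is a membrane protein and Zfp36 an RNA-binding protein that speeds mRNA decay. Their mean FPKM in BMDM were 252, 231 and 287, beside 226 for Ctss. In BSM they were 372, 722 and 208, beside 596 for Ctss, so only the first pair shared its higher level in BSM. Likeness over 6 libraries is a description of levels.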

How the data were processed

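RNA-Seq of 3 BMDM and 3 BSM libraries was analysed as deposited. The submitters' processing notes name CASAVA 1.7.0, Bowtie 0.12.7, TopHat 1.3.1, Cufflinks 1.0.3 and mm9. The authors deposited FPKM from Cufflinks and a normalized expression signal from ALEXA-Seq, on a linear scale whose unit is not given in the sources used here. Replicate sets were generated independently by the study's methods. Neither table holds read counts, so the depth behind a value is unknown, and 0 columns of values were left unmapped.

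Groups were compared with limma 3.58.1 in R 4.3.3 (moderated linear models whose prior variance followed mean expression). The Cufflinks fit used log2(FPKM + 1) and kept 6364 genes reaching 3 FPKM in at least 1 library. The ALEXA-Seq fit used log2(value + 1) and the 6364 entries with the highest values. P-values were adjusted by Benjamini-Hochberg over all genes tested and called under 0.05. A pseudocount of 1 understates changes of low genes. The step was tested on simulated data. Shares were compared by exact permutation (scipy 1.17.1).

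The members, gene lists and tests were chosen with earlier results of these data known. Named were the 10 members, at most the 4 genes of highest mean FPKM in each list with any called against most of it, and the 3 genes nearest to the highest member. A gene that this rule names is not reported here. Marker lists also covered dendritic cells, perivascular macrophages, endothelial cells, astrocytes, oligodendrocytes, neurons and lymphocytes. Older symbols were matched through RefSeq synonyms. Starts in the Cufflinks table are counted from 0 and are given here from 1. Alternatives tried were 0.1 as pseudocount, a minimum of 1 FPKM or no minimum, the rescalings named in the text, no trend, library quality weights, a replicate block and leaving out each library.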

Additional observations from a re-analysis of the deposited data

How the results depend on the processing

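Calls of Ctsd, Ctsl, Ctss and Ctsf as higher in BSM kept their direction and side of the threshold under every alternative tried. These were 17 for FPKM, counting the ALEXA-Seq values as 1 of them, and 9 for ALEXA-Seq. Among the 17 was leaving out BMDM replicate 2 and BSM replicate 1 together, chosen after the values were seen. For Ctsf the unchanged call adds little, as it passed the FPKM minimum only through BSM. Among the FPKM fits, only that with no minimum was free of this filter. The 4 calls higher in BSM became 9 at the same summed value in every library, in both tables. The 1 call higher in BMDM (FPKM) became 0 with upper quartile scaling, quantile normalization, the same sum or the replicate block, and 2 with library quality weights. In ALEXA-Seq it became 0 with quantile normalization, the same sum or the replicate block. Leaving out each library in turn gave 0 to 2 calls higher in BMDM in both tables, and 4 (FPKM) or 4 to 5 (ALEXA-Seq) higher in BSM. The cause was not tested. With the replicate block Ctsc had an adjusted p of 0.057 (FPKM) and 0.083 (ALEXA-Seq), and the block changed no other member's call. Libraries of the same number had deviations that correlated at -0.02, -0.01 and 0.13 over 6364 genes, so the numbers were not taken to pair the libraries.

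The 2.48-fold cathepsin sum was 4.48-fold with upper quartile scaling and 6.17-fold at the same sum. Members below the median of all genes tested were 9 of 9 in the main FPKM fit. They were 8 of 9 with a minimum of 1 FPKM and 6 of 10 with no minimum. Related genes called higher in BSM went from 9 to 17 (quantile normalization) and 23 (same sum), and those higher in BMDM from 18 to 11 and 9. The shares of all genes tested went from 9.22% to 19.3% and 24.9%, and from 45.3% to 21.7% and 15.2%. Log2 fold changes that turned sign in FPKM (upper quartile, quantile, same sum) were those of Ctsa (-0.72, -0.68, -1.16), Ctsb (-0.59, -0.46, -1.05), Ctsc (-0.18, -0.13, -0.64) and Ctsh (-0.32, -0.26, -0.78). In ALEXA-Seq (quantile, same sum) they were Ctsa (-0.56, -1.14), Ctsb (-0.62, -1.19), Ctsc (-0.22, -0.77) and Ctsh (-0.30, -0.89). Leaving out a library gave between -0.22 and 0.34 for Ctsa in FPKM, between -0.11 and 0.28 for Ctsa and between -0.070 and 0.32 for Ctsb in ALEXA-Seq, and a BMDM minus BSM difference in share between -10.7 and 3.82 points for Ctss and between -0.0014 and 0.00063 for Ctsk.

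Reads behind each value are not given, and no detection limit was worked out from the mapped reads of each library. Levels near 0, such as those of Ctsk and of Ctsf in BMDM, are therefore given without a limit.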

Other observations

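The other marker lists were summed in each library as a check on mixed cells. FPKM came to between 0.018 and 0.10 in BMDM and between 5.31 and 9.52 in BSM for astrocytes, nearly all from Slc1a3, with Gfap at 0 in all 6 libraries. For oligodendrocytes they came to between 7.06 and 12.8 in BMDM and between 1.78 and 2.11 in BSM, with Mbp and Cnp highest and Cldn11 at 0. Sums were at most 0.25 for 4 neuronal markers and at most 3.87 for endothelial cells, and for lymphocytes 8.53 in BMDM replicate 2 against at most 1.34 elsewhere. Dendritic cell markers summed to between 6.11 and 12.4 in BMDM and between 85.3 and 90.5 in BSM, there through Siglech, a gene the microglial list also holds. Perivascular macrophage markers came to between 113 and 159 in BMDM, through F13a1 of the monocyte list, and between 2.08 and 5.07 in BSM.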
